A study of Homo sapiens with 9 samples.

Results

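Of the 30017 genes in the deposited MOLM13 count table, 10 that encode major chaperones and folding enzymes of the endoplasmic reticulum (ER) are described here: CALR, CANX, HSPA5, HSP90B1, PDIA3, PDIA4, PDIA6, HYOU1, SDF2L1 and DNAJB9. They were taken by symbol as a group selected on its readout, the lower CALR count after DDX41 knockdown, and all 10 members passed the filter on low counts that left 12712 genes for testing. MOLM13 is a human acute myeloid leukemia line with monocytic features, and DDX41 is a DEAD-box RNA helicase. To examine DDX41 loss, the cells were transduced with a pLKO-GFP lentivirus carrying sh-Control or 1 of 2 short hairpin RNAs against DDX41 (shDDX41 #1 or shDDX41 #2), and GFP+ cells were sorted on day 4 and used for RNA-seq. All 3 groups therefore carried the GFP vector and had passed the same sort, each group had 3 libraries with the letters A, B and D, and the labels do not say whether these came from separate transductions, so that every p-value measures only the spread between these samples, which may be technical.

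The ER is where secreted and membrane proteins fold. HSPA5 (BiP) is the Hsp70 chaperone of the ER lumen, HSP90B1 (GRP94) its Hsp90, and calreticulin (CALR) and calnexin (CANX) are lectin chaperones that hold newly made glycoproteins, while protein disulfide isomerases form and rearrange disulfide bonds. When unfolded proteins accumulate, the unfolded protein response (UPR) raises the transcription of many of these genes through ATF6, XBP1 and ATF4. ATF6 acts together with the CCAAT-binding factor NF-Y at the ER stress element of chaperone promoters. Calreticulin also stores calcium in the ER, and mutated CALR drives a group of myeloproliferative neoplasms.

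The promoters are shown because the levels of these genes are commonly controlled through that element. RefSeq sequence (GRCh38.p14) from 250 bases before to 50 bases after the start was at hand for 9 of the 10 members (14 windows), all except PDIA3. The ER stress element, searched on both strands as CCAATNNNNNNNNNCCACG, was found in CALR, CANX, HSPA5, HSP90B1 and PDIA6, and its second form, ATTGGNCCACG, in HYOU1 and SDF2L1. Among all 35116 windows, 0.0769% held the first form and 0.0541% the second, and 44 of 27305 genes (0.161%) had at least 1 window with either. Windows of PDIA4 and DNAJB9 held neither form, which says only that these letters are not in those windows. In the sequences upstream of the start of CALR (chr19:12938359-12938608, + strand), HSPA5 (chr9:125241344-125241593, - strand) and HYOU1 (chr11:119057206-119057455, - strand), printed 5′ to 3′ on the strand of the gene, capitals mark the CCAAT and CCACG parts of the element or their reverse complement, and in HYOU1 also the letters of a TGACGTG:
CALR: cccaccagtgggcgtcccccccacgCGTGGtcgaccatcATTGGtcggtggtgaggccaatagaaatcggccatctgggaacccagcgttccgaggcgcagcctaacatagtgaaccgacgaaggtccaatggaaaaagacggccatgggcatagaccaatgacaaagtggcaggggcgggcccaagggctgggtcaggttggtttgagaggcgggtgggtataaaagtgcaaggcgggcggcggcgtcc
HSPA5: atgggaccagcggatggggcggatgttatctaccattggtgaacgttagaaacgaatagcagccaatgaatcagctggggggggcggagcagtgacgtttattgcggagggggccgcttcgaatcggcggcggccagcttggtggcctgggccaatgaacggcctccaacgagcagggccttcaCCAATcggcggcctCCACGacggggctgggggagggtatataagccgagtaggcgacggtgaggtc
HYOU1: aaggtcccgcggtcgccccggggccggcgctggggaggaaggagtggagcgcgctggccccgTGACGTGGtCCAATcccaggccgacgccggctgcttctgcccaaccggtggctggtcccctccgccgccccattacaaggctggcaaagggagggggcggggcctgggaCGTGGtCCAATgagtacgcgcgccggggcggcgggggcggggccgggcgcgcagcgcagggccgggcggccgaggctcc
The CALR element lies at 225 to 207 bases before the start in reverse orientation, the HSPA5 element at 66 to 48 bases, and the HYOU1 elements at 185 to 175 and at 79 to 69 bases. TGACGTG, a core sequence bound by ATF6 and XBP1 that 1.97% of all windows held on either strand, was matched among the members only in HYOU1, at 188 to 182 bases before the start, where it overlaps the distal second-form element. For the other members with a match, the element is printed with 5 bases on each side, on the strand of the gene and with the same capitals:
CANX (chr5:179698773-179698801, + strand): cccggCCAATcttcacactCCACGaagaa
HSP90B1 distal (chr12:103930211-103930239, + strand): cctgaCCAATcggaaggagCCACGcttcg
HSP90B1 proximal (chr12:103930316-103930344, + strand): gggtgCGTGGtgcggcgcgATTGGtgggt
PDIA6 (chr2:10812848-10812876, - strand): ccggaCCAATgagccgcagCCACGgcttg
SDF2L1 (chr22:21642109-21642129, + strand): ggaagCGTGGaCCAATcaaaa
HSP90B1 held 2 elements, at 194 to 176 and at 89 to 71 bases before the start, and the single CANX site fell within 3 of its 4 windows. No binding was measured in these samples, so these matches describe the sequence alone.

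Libraries held 16385238 to 20510032 counts. Levels are given as CPM, the counts of a gene per 1000000 counts of the library after scaling by trimmed mean of M values (TMM) factors, and a gene was called at a Benjamini-Hochberg adjusted p under 0.05 over all 12712 tested genes in edgeR's quasi-likelihood test. DDX41 itself stood at 115 ± 1.76 CPM (SD, n = 3) in sh-Control, 11.7 ± 1.56 CPM with shDDX41 #1 and 40.4 ± 1.85 CPM with shDDX41 #2, with no overlap between groups. Library D of shDDX41 #1 stood apart from its partners: the chi-square per degree of freedom over genes was 17.7 and 19.2 against A and B but 2.91 between A and B. Pairs of sh-Control libraries also differed, at 8.05 to 10.2, while pairs of shDDX41 #2 libraries were at 2.46 to 3.26. Of 10 myeloid markers, 9 were at 5 CPM or more and CD14 was near 0 in every library. Summed over the markers, the sh-Control libraries held 2459 to 2650 CPM, those of shDDX41 #1 2513 to 2618 CPM and those of shDDX41 #2 3388 to 3449 CPM. Of 12 markers of other cells, 5 were at 0 in every library and 1, PECAM1, reached 5 CPM, with sums of 131 to 142 CPM, 103 to 105 CPM and 182 to 193 CPM in the same order. PECAM1 stood at 102 to 190 CPM and no other marker of that list passed 2.06 CPM, so these sums are nearly all PECAM1. The largest myeloid marker was LYZ, at 838 to 1833 CPM. The share of counts on ribosomal protein genes was 8.72% to 9.91% in sh-Control, 11.7% to 14.3% with shDDX41 #1 and 10.4% to 10.7% with shDDX41 #2. The part of the marker and ribosomal protein differences in the results on the chaperones was not tested.

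Together the 10 genes took 0.672% ± 0.00966 (SD, n = 3) of all counts in sh-Control, 0.473% ± 0.01002 with shDDX41 #1 and 0.597% ± 0.0190 with shDDX41 #2, and these groups did not overlap. CALR made up 26.8% ± 1.12 of the counts of the 10 genes in sh-Control and 26.1% ± 0.258 with shDDX41 #2 but 16.4% ± 1.18 with shDDX41 #1. Without CALR, the other 9 genes held 0.492%, 0.396% and 0.441% of all counts in the same order. In bulk RNA, fewer cells of a type and less RNA per cell cannot be told apart.

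Because the genes were picked with the knockdown contrasts in view, their differences from sh-Control are given as a description, with no test. All 10 log2 fold changes were negative with shDDX41 #1, from -1.20 to -0.06 with a median of -0.28, against a median of 0.01 over all tested genes. With shDDX41 #2, 9 of 10 were negative, from -0.37 to 0.22 with a median of -0.10, against -0.01 over all tested genes. Both contrasts use the same 3 sh-Control libraries. Counted by the same threshold as other genes, which is no test here since these contrasts chose the group, 7 members were called with shDDX41 #1 (47.8% of all tested genes were called, 24.1% lower and 23.7% higher) and 4 with shDDX41 #2 (25% of all tested genes, 13.4% lower and 11.6% higher), each of them lower. With shDDX41 #1 the count ran from 5 to 8 over the other scalings, filters, tools and left-out libraries. It was 5 under upper quartile scaling, with only the 6 libraries compared, and without shDDX41 #1 A or B. CANX was no longer called in 5 of the alternatives and PDIA6 in 7. The count of 4 with shDDX41 #2 came to 2 without sh-Control A, B or D or shDDX41 #2 B, and to 1 without shDDX41 #2 A or D. There CALR was no longer called in 12 of the alternatives tried. The groups did not overlap for 7 members with shDDX41 #1 (53.1% of all tested genes, 26.6% with the knockdown lower) and 5 with shDDX41 #2 (43.8%, 22.7% lower), with the knockdown lower for each of these members.

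**Figure D1:**
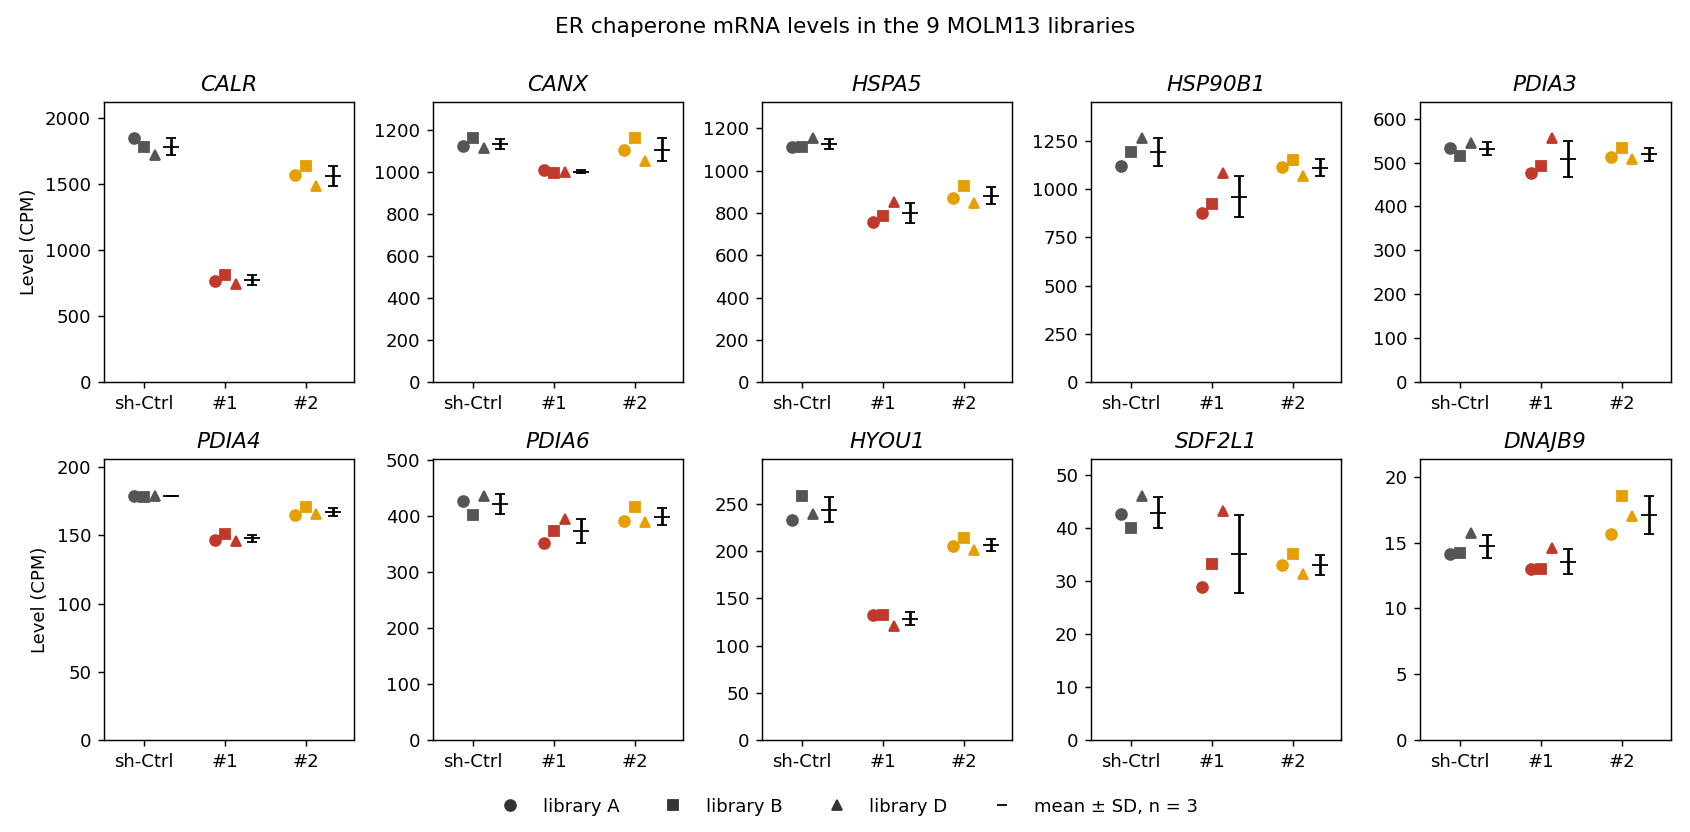
Level in CPM (vertical axis, from 0, its own scale in each panel) of the 10 ER chaperone genes in each library of sh-Control (sh-Ctrl), shDDX41 #1 and shDDX41 #2. Circles, squares and triangles are libraries A, B and D, and the black bar is the mean ± SD (n = 3). CALR and HYOU1 in the shDDX41 #1 libraries lie below every other library, at 745 to 815 CPM and 120 to 133 CPM.

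Calreticulin, the soluble lectin chaperone, had the largest difference of the 10 with shDDX41 #1, while with shDDX41 #2 those of SDF2L1, HSPA5, HYOU1 and DNAJB9 were larger. CALR stood at 1850, 1786 and 1724 CPM in sh-Control A, B and D, at 765, 815 and 745 CPM with shDDX41 #1 and at 1573, 1639 and 1487 CPM with shDDX41 #2. Every knockdown library was below every sh-Control library, and the shDDX41 #1 libraries lay far below those of shDDX41 #2. The log2 fold change was -1.20 (SE 0.0666) with shDDX41 #1, which is 56.6% lower, and -0.19 (SE 0.0656) with shDDX41 #2, which is 12.3% lower. Ranked by fold change with shDDX41 #1, CALR was the 216th lowest of the 12712 tested genes, and with shDDX41 #2 the 3125th lowest. CALR lies at chr19:12938609-12944489 on the + strand of GRCh38.p14 and overlaps AC092069.1 on the opposite strand.

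Calnexin, the membrane-bound relative of calreticulin that binds the same kind of monoglucosylated glycan, differed far less. CANX stood at 1123, 1162 and 1117 CPM in sh-Control, at 1009, 996 and 1003 CPM with shDDX41 #1 and at 1108, 1161 and 1054 CPM with shDDX41 #2. The shDDX41 #1 libraries were all below the rest and close together, while shDDX41 #2 A and D lay below the sh-Control range and B within it. Its log2 fold changes were -0.18 (SE 0.0609) and -0.03 (SE 0.0609).

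HSPA5, the Hsp70 chaperone that also holds the UPR sensors inactive, was lower with both hairpins. It stood at 1110, 1111 and 1153 CPM in sh-Control, at 758, 788 and 851 CPM with shDDX41 #1 and at 870, 929 and 849 CPM with shDDX41 #2. Neither knockdown group overlapped sh-Control, but the knockdown groups overlapped each other, since shDDX41 #1 D lay just above shDDX41 #2 D. The log2 fold changes were -0.49 (SE 0.0656) and -0.35 (SE 0.0655), that is 29% and 21.5% lower.

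HYOU1 (GRP170) is an Hsp70-like chaperone that exchanges the nucleotide of HSPA5, and its difference was second to that of CALR with shDDX41 #1. Its levels were 233, 259 and 240 CPM in sh-Control, 133, 132 and 120 CPM with shDDX41 #1 and 205, 214 and 201 CPM with shDDX41 #2. The 3 groups fell into 3 separate ranges, with shDDX41 #2 between the others. The log2 fold change was -0.93 (SE 0.0660) with shDDX41 #1 and -0.24 (SE 0.0649) with shDDX41 #2, which is 47.3% and 15.2% lower.

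HSP90B1, the ER Hsp90 that folds integrins and Toll-like receptors, stood at 1120, 1194 and 1263 CPM in sh-Control, at 879, 923 and 1083 CPM with shDDX41 #1 and at 1116, 1151 and 1068 CPM with shDDX41 #2. Only shDDX41 #1 was wholly below sh-Control and its library D was the highest of its group. The log2 fold changes were -0.31 (SE 0.0798) and -0.10 (SE 0.0797), and the first was -0.39 without shDDX41 #1 D.

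The J-domain protein DNAJB9 (ERdj4) and SDF2L1, a partner of ER J-domain proteins, both serve HSPA5 and had the fewest counts of the 10. SDF2L1 stood at 42.6, 40.1 and 46.1 CPM in sh-Control, at 28.9, 33.2 and 43.3 CPM with shDDX41 #1 and at 32.96, 35.1 and 31.3 CPM with shDDX41 #2. Library D of shDDX41 #1 lay within the sh-Control range while A and B lay below it, and all of shDDX41 #2 lay below it. The log2 fold changes were -0.29 (SE 0.116) and -0.37 (SE 0.115), and the first ran from -0.46 without shDDX41 #1 D to -0.16 without shDDX41 #1 A. DNAJB9 stood at 14.2, 14.2 and 15.7 CPM in sh-Control, at 13.02, 12.99 and 14.6 CPM with shDDX41 #1 and at 15.7, 18.5 and 17.0 CPM with shDDX41 #2. It was the only member above sh-Control with shDDX41 #2 (log2 fold change 0.22, SE 0.103), although the ranges of those groups overlapped, and with shDDX41 #1 the value was -0.12 (SE 0.106). PNPLA8 and THAP5 overlap DNAJB9 on the opposite strand, and how reads were assigned to strands is not given in the sources used here.

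Among the disulfide isomerases, PDIA4 lay below sh-Control in every library of both hairpins, but with shDDX41 #2 it was not among the members called. It stood at 179, 178.5 and 179 CPM in sh-Control, at 146, 151 and 146 CPM with shDDX41 #1 and at 165, 171 and 166 CPM with shDDX41 #2, so that the 3 groups did not overlap. The log2 fold changes were -0.28 (SE 0.0564) and -0.10 (SE 0.0561). PDIA6, which attenuates the UPR sensor IRE1, stood at 427, 401 and 436 CPM in sh-Control, at 351, 372 and 394 CPM with shDDX41 #1 and at 391, 416 and 388 CPM with shDDX41 #2. Only the shDDX41 #1 libraries lay wholly below sh-Control, and the log2 fold changes were -0.18 (SE 0.0648) and -0.08 (SE 0.0647). PDIA3 (ERp57), the isomerase that works with calreticulin and calnexin, stood at 534, 516 and 545 CPM in sh-Control, at 477, 492 and 555 CPM with shDDX41 #1 and at 512, 534 and 508 CPM with shDDX41 #2. All 3 groups overlapped and the log2 fold changes were -0.06 (SE 0.0670) and -0.04 (SE 0.0670), the first of which was 0.01 under upper quartile scaling. A near-identical copy of PDIA3, the pseudogene PDIA3P1, held 481 to 720 counts per library, and ELL3 overlaps PDIA3 on the opposite strand, so the PDIA3 level is uncertain to that extent.

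**Figure D2:**
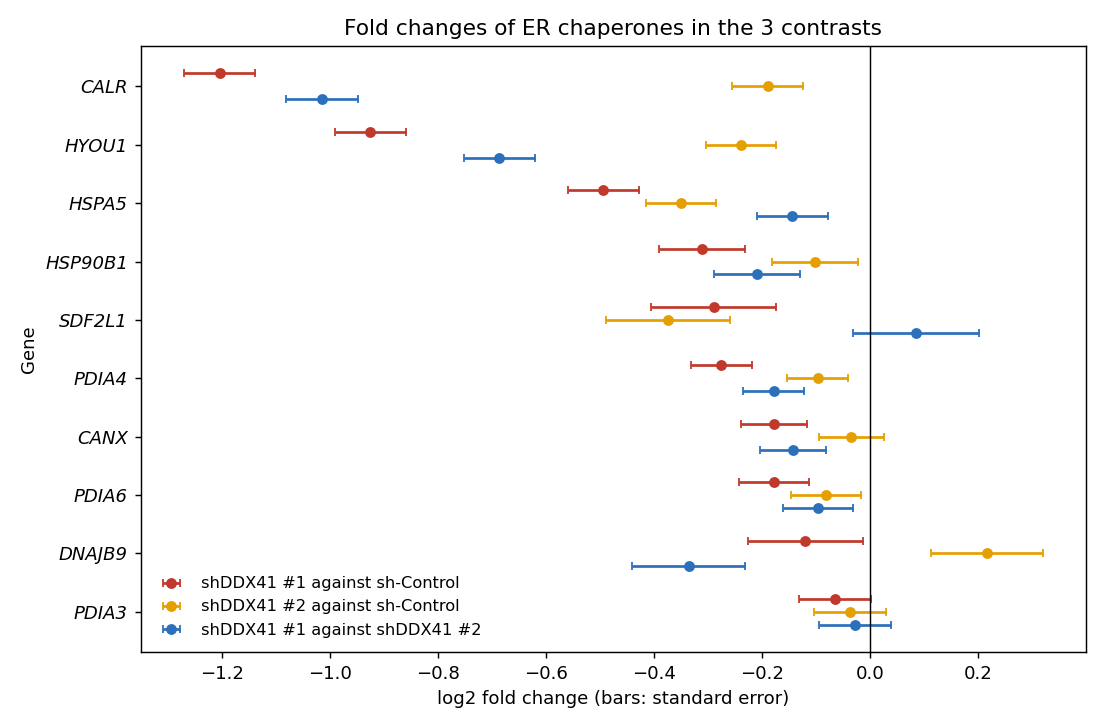
Log2 fold change (horizontal axis) of each ER chaperone gene for each hairpin against sh-Control (red and orange) and for the first hairpin against the second (blue), with bars for the standard error. Genes are ordered by the first contrast. CALR (-1.20) and HYOU1 (-0.93) stand apart in the first contrast, and DNAJB9 lies to the right of 0 only with shDDX41 #2 (0.22).

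To ask whether chaperone levels differed between the hairpins, shDDX41 #1 was compared with shDDX41 #2. Each level of DDX41 loss came from its own hairpin. The comparison therefore cannot separate the degree of loss from other effects of the hairpin sequence or from cell state. The study reported cell cycle arrest and apoptosis with both hairpins by the day of sorting. It found cell cycle pathways enriched only with the more effective hairpin. The part of these states in the chaperone values was not tested. Both arms of this contrast are knockdown libraries, whose lower CALR chose the group, so that its tests on the members are not independent of that choice. Of the 10 members, 5 were lower with shDDX41 #1 (CALR, HYOU1, HSP90B1, PDIA4 and DNAJB9) and the others were not called, while 48.8% of all tested genes were called in this contrast, 24.2% lower and 24.6% higher. CALR, CANX, PDIA4, HYOU1 and DNAJB9 had no overlap between the hairpins, each lower with shDDX41 #1 (57.7% of all tested genes had none, 28.5% with shDDX41 #1 lower). The median of the 10 log2 fold changes was -0.16, against 0.01 over all tested genes. CALR was 50.5% lower with shDDX41 #1 (log2 fold change -1.02, SE 0.0664), which is given with no p because its level in the knockdown libraries chose the group. HYOU1 was 37.9% lower (-0.69, SE 0.0659, adjusted p = 9.1e-07 by edgeR), and it stayed called at an adjusted p under 0.05 under every other scaling, filter, tool and left-out library, while its difference was under 2-fold. DNAJB9 was lower by -0.34 (SE 0.105, adjusted p = 0.0155) and was no longer called without shDDX41 #2 B (adjusted p = 0.0804). For PDIA4 the difference was -0.18 (SE 0.0564, adjusted p = 0.0167), and it was lost under upper quartile scaling (adjusted p = 0.0576) and without shDDX41 #2 B (adjusted p = 0.0703). HSP90B1 differed by -0.21 (SE 0.0798, adjusted p = 0.0409), a call that was lost under upper quartile scaling and without any 1 of the shDDX41 #1 libraries A and B or the shDDX41 #2 libraries A, B and D (adjusted p from 0.0545 to 0.158). Without shDDX41 #1 D the same difference was -0.30.

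The remaining 5 members were not called between the hairpins. CANX differed by -0.14 (adjusted p = 0.0641), although its groups did not overlap, and HSPA5 by -0.14 (adjusted p = 0.0814). Both were called without shDDX41 #1 D (adjusted p = 0.0498 and 0.0113) and by DESeq2 (adjusted p = 0.0220 and 0.0424). PDIA6 differed by -0.10 (adjusted p = 0.234), PDIA3 by -0.03 (adjusted p = 0.752) and SDF2L1 by 0.08 (adjusted p = 0.577). The number of members called ran from 2 without shDDX41 #2 B to 7 without shDDX41 #1 D.

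To compare levels between the chaperones, CPM was divided by the length of the principal transcript (GENCODE v29). In sh-Control the order in CPM per kb was CALR at 939 ± 33.1 (SD, n = 3), HSP90B1 at 417 ± 24.998, HSPA5 at 288 ± 6.27, CANX at 266 ± 5.76, PDIA6 at 180 ± 7.77, PDIA3 at 143 ± 4.00, PDIA4 at 61.6 ± 0.0955, HYOU1 at 53.8 ± 2.92, SDF2L1 at 49.6 ± 3.48 and DNAJB9 at 5.42 ± 0.331. HYOU1 and SDF2L1 were the only neighbours in this order whose library ranges overlapped. In sh-Control the level of CALR was thus well above that of HSP90B1, while with shDDX41 #1 the values were 407 ± 18.9 and 336 ± 37.7 CPM per kb. CANX stood above HSPA5 with both hairpins (235 against 204 CPM per kb with shDDX41 #1 and 260 against 226 with shDDX41 #2), and SDF2L1 above HYOU1 with shDDX41 #1 (40.6 against 28.3 CPM per kb), without overlap in each case.

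The sensors and transcription factors of the UPR were examined next, listed with proteases that release active ATF6, a phosphatase subunit and a pseudokinase. All 11 listed genes were tested, and with shDDX41 #1 4 of them were lower and 2 higher. With shDDX41 #2 4 were called, each of them lower, and between the hairpins 4 were lower and 3 higher with shDDX41 #1. In the same order, 54.5%, 36.4% and 63.6% of the list were called, against 47.8%, 25% and 48.8% of all tested genes. EIF2AK3 (PERK), the kinase that phosphorylates eIF2alpha, stood at 15.8, 16.7 and 17.9 CPM in sh-Control, at 13.4, 12.5 and 9.95 CPM with shDDX41 #1 and at 18.1, 17.5 and 19.6 CPM with shDDX41 #2. It fell with shDDX41 #1 (log2 fold change -0.49, adjusted p = 0.00291 by edgeR), was 0.13 with shDDX41 #2 (adjusted p = 0.428), and differed between the hairpins by -0.62 (adjusted p = 0.00045). ERN1 (IRE1), the sensor that splices XBP1 mRNA, rose with shDDX41 #1 (0.45, adjusted p = 0.0201), a call lost without sh-Control D (adjusted p = 0.0985) or shDDX41 #1 B (adjusted p = 0.0938). XBP1 fell with shDDX41 #1 (-0.31, adjusted p = 0.00116) and was at -0.18 with shDDX41 #2 (adjusted p = 0.0510). The latter was called in several alternatives, among them DESeq2 (adjusted p = 0.0416), limma voom (adjusted p = 0.0478) and the replicate block (adjusted p = 0.0388).

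ATF6 was at -0.13 with shDDX41 #1 (adjusted p = 0.146) and -0.20 with shDDX41 #2 (adjusted p = 0.0465 by edgeR), and the latter call was lost in 13 alternatives, among them leaving out any 1 of 8 libraries and DESeq2. Its relative ATF6B was not called against sh-Control but was lower with shDDX41 #1 than with shDDX41 #2 (-0.29, adjusted p = 0.00267). With shDDX41 #2 it became called, as higher, under upper quartile scaling (adjusted p = 0.0352) and without shDDX41 #1 D (adjusted p = 0.0270). The proteases that release active ATF6 showed small differences: MBTPS2 fell with shDDX41 #1 (-0.28, adjusted p = 0.0235, lost without sh-Control D or shDDX41 #1 B, under upper quartile scaling, with adjusted p = 0.0868, and with only the 6 libraries compared, with adjusted p = 0.0508), and MBTPS1 was at -0.19 (adjusted p = 0.0706).

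In the ATF4 arm, ATF4, DDIT3 and PPP1R15A differed between the hairpins and TRIB3 was not called (log2 fold change -0.05, adjusted p = 0.609 by edgeR). ATF4, the factor whose translation rises when eIF2alpha is phosphorylated, stood at 648, 624 and 669 CPM in sh-Control, at 683, 679 and 779 CPM with shDDX41 #1 and at 565, 524 and 530 CPM with shDDX41 #2. It fell with shDDX41 #2 (-0.26, adjusted p = 0.0121 by edgeR, lost without shDDX41 #2 B or D), was at 0.14 with shDDX41 #1 (adjusted p = 0.102), and was higher with shDDX41 #1 than with shDDX41 #2 (0.40, adjusted p = 0.000212). DDIT3 (CHOP), a pro-apoptotic target of ATF4, stood at 23.98, 21.04 and 21.5 CPM in sh-Control, at 27.5, 23.2 and 30.8 CPM with shDDX41 #1 and at 13.5, 11.4 and 9.39 CPM with shDDX41 #2. All shDDX41 #2 libraries lay below the others, and DDIT3 was at -0.96 with shDDX41 #2 (adjusted p = 0.000114) and 0.29 with shDDX41 #1 (adjusted p = 0.0650), a difference of 1.25 between the hairpins (adjusted p = 2.3e-06). Under upper quartile scaling ATF4 and DDIT3 were both called higher with shDDX41 #1 (adjusted p = 0.0203 and 0.0250). DDIT3 was also called there with the replicate block (adjusted p = 0.0396) and without shDDX41 #1 B (adjusted p = 0.0210). PPP1R15A (GADD34), the phosphatase subunit that reverses eIF2alpha phosphorylation, rose with shDDX41 #1 (0.82, adjusted p = 2.7e-05) and was at 0.08 with shDDX41 #2 (adjusted p = 0.638), a difference of 0.74 (adjusted p = 6.4e-05). TRIB3, a pseudokinase induced by ATF4 and CHOP, fell with both hairpins (-0.57, adjusted p = 2.2e-05, and -0.52, adjusted p = 0.000166). All of these are mRNA levels, and the release of active ATF6, the splicing of XBP1 mRNA and the translation of ATF4 were not examined.

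**Figure D3:**
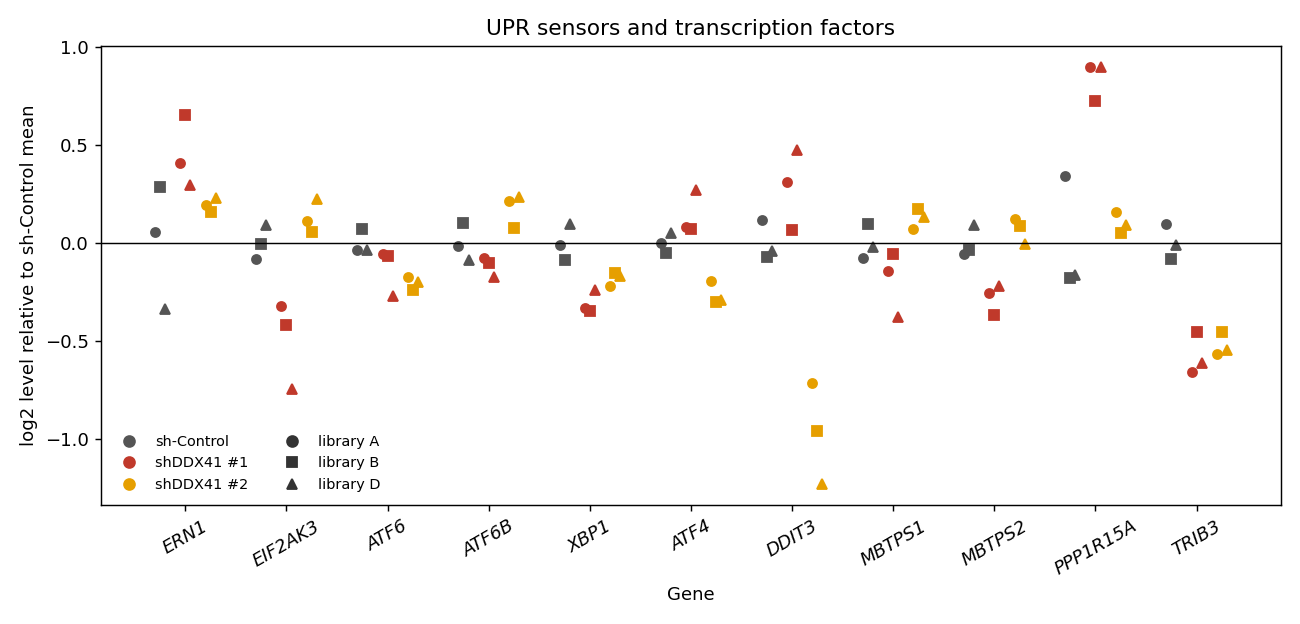
Difference of log2 CPM from the mean of sh-Control (vertical axis) of the 11 genes listed for the UPR, 1 point per library. The groups are in grey (sh-Control), red (shDDX41 #1) and orange (shDDX41 #2). The shDDX41 #2 libraries of DDIT3 lie at -0.71 to -1.23, while the shDDX41 #1 libraries of PPP1R15A lie at 0.72 to 0.90.

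To set the chaperones beside the rest of the ER machinery, 10 lists with 124 other ER genes were counted, of which 120 were tested (FKBP9, FKBP10, TUSC3 and KDELR3 were not). With shDDX41 #1, 67 of them (55.8%) were called, 46 lower and 21 higher, with a median log2 fold change of -0.11. Under upper quartile scaling the split was 35 lower and 31 higher. With shDDX41 #2, 40 (33.3%) were called, 19 lower and 21 higher, with a median of 0.01, and between the hairpins 58 (48.3%) were called, 40 lower and 18 higher with shDDX41 #1, with a median of -0.10. The shares for all tested genes were 47.8% (24.1% lower, 23.7% higher), 25% (13.4% and 11.6%) and 48.8% (24.2% and 24.6%).

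Genes for ER calcium handling had the lowest median of the lists with shDDX41 #1. Of 11 tested, 8 were lower and 1 was higher, with a median log2 fold change of -0.45, and with shDDX41 #2 1 was lower and 3 were higher, with a median of 0.11. The shares called were 81.8% and 36.4%, against 47.8% and 25% of all tested genes. RCN1, an ER calcium-binding protein like calreticulin, fell from 37.4 ± 0.628 CPM to 12.7 ± 1.72 CPM with shDDX41 #1 (SD, n = 3; log2 fold change -1.56, adjusted p = 1.4e-08 by edgeR). ORAI1, the plasma membrane channel opened when ER calcium is low, fell with shDDX41 #2 (-0.46, adjusted p = 0.000479). Other genes with at least a 2-fold fall with shDDX41 #1 were TRAM1 of the translocon (-1.68, adjusted p = 8.5e-11), RPN2 of the oligosaccharyltransferase (-1.40, adjusted p = 9.1e-09), the cargo receptor SURF4 (-1.17, adjusted p = 6.7e-09) and the calcium release channel ITPR3 (-1.64, adjusted p = 9.8e-06), the last of them named after its value was seen. With shDDX41 #2 the only such gene was TXNDC12, a thioredoxin-like ER protein, which went from 142 ± 2.18 CPM to 53.2 ± 2.84 CPM (-1.42, adjusted p = 4.2e-09). The shDDX41 #2 libraries of RPN2 lay above the sh-Control mean, by 0.213 to 0.298 in log2 CPM, while those of RCN1, TRAM1 and SURF4 lay below it.

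In the list of other chaperones, co-chaperones and prolyl isomerases, 8 of 18 tested genes were lower and 3 higher with shDDX41 #1, and 2 were lower and 1 higher with shDDX41 #2. MANF, a small secreted ER protein induced by the UPR, fell with both hairpins, from 64.2 ± 3.13 CPM to 35.3 ± 4.76 CPM with shDDX41 #1 (-0.87, adjusted p = 1.3e-06 by edgeR) and to 45.1 ± 0.410 CPM with shDDX41 #2 (-0.51, adjusted p = 0.000509). Of 13 other disulfide isomerases and oxidases, 6 were lower and 1 higher with shDDX41 #1, led by the transmembrane thioredoxin TMX4 (-0.93, adjusted p = 3.5e-08), and 4 were lower and 3 higher with shDDX41 #2. In the calnexin and calreticulin cycle, the glucose that these chaperones recognise is trimmed and re-added. The genes listed for this cycle were split: 3 lower and 3 higher of 10 with shDDX41 #1, and 2 lower and 4 higher with shDDX41 #2. That list also held mannosidases: MAN1B1 rose with shDDX41 #1 (0.69, adjusted p = 2.4e-06) and EDEM3 fell with shDDX41 #2 (-0.31, adjusted p = 0.00484). In the order of this paragraph, 61.1%, 53.8% and 60% of the lists were called with shDDX41 #1, against 47.8% of all tested genes. With shDDX41 #2 the shares were 16.7%, 53.8% and 60%, against 25%.

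Among 18 genes of ER-associated degradation, 4 were lower and 4 higher with shDDX41 #1, where DERL3 fell (-0.92, adjusted p = 1.6e-05 by edgeR), and 3 were lower and 2 higher with shDDX41 #2, where the lectin OS9 rose (0.32, adjusted p = 0.00190). Of 17 translocon, signal peptidase and signal recognition receptor genes, 6 were lower and 2 higher with shDDX41 #1, and 2 were lower and 1 higher with shDDX41 #2, where SSR3 fell (-0.32, adjusted p = 0.00230). Of 11 oligosaccharyltransferase genes, 5 were lower and 1 higher with shDDX41 #1, and 1 was lower and 2 higher with shDDX41 #2, the lower one being STT3B (-0.27, adjusted p = 0.00447). Of 5 retrieval and cargo receptors, 2 were lower and 1 higher with shDDX41 #1, and with shDDX41 #2 2 were called, both higher, among them the KDEL receptor KDELR1 (0.26, adjusted p = 0.00766). Genes for partners of calreticulin and PDIA3 in loading peptides onto class I molecules gave 3 calls of 6 with each hairpin, all higher, led by TAP1 with shDDX41 #1 (0.34, adjusted p = 0.00124) and TAPBPL with shDDX41 #2 (0.95, adjusted p = 5.8e-06). In the order of this paragraph, 44.4%, 47.1%, 54.5%, 60% and 50% of the lists were called with shDDX41 #1, against 47.8% of all tested genes. With shDDX41 #2 the shares were 27.8%, 17.6%, 27.3%, 40% and 50%, against 25%.

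**Figure D4:**
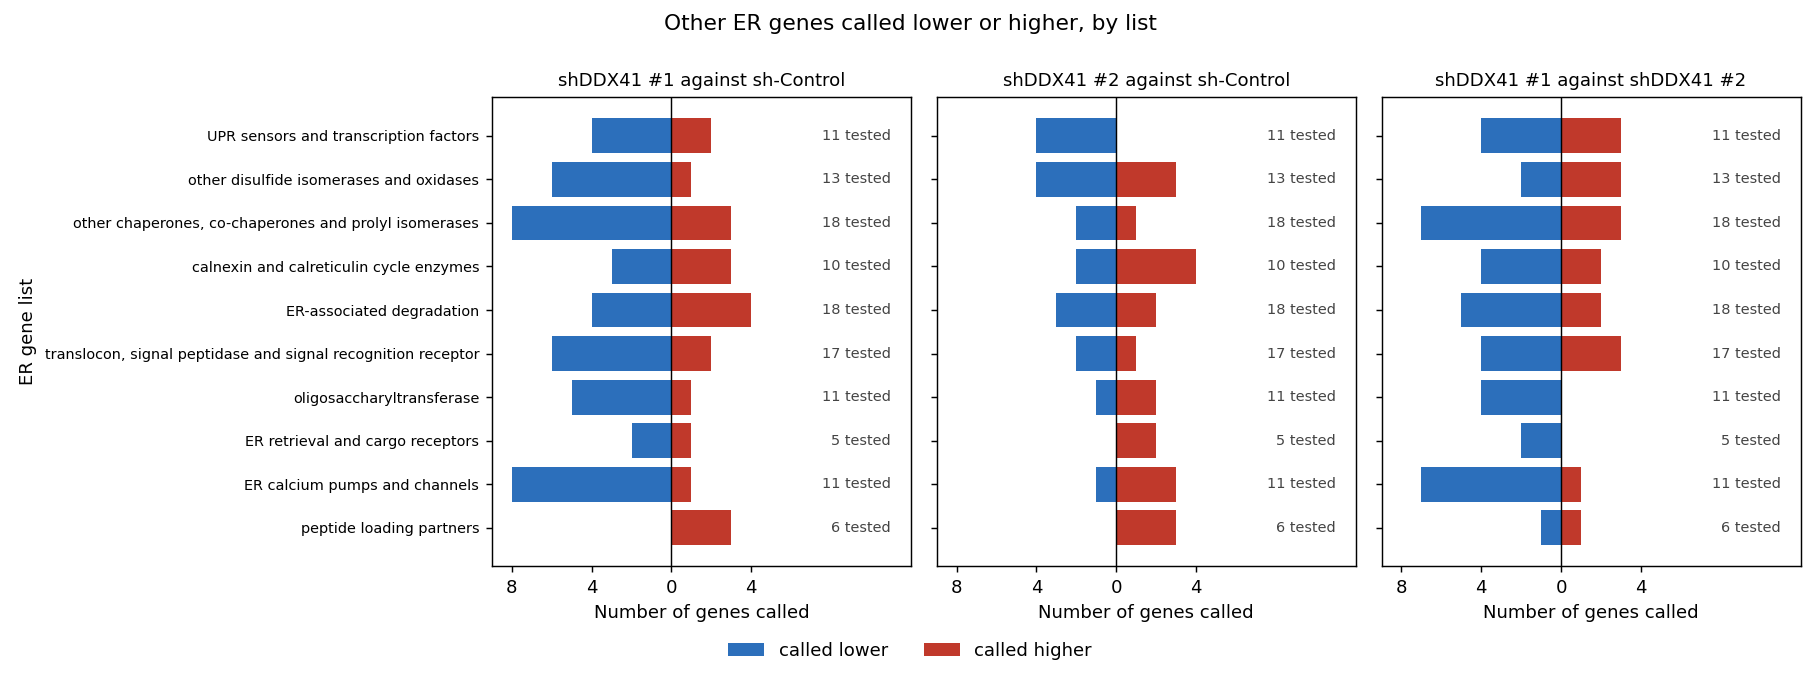
Number of genes called lower (blue, to the left) or higher (red, to the right) in each of the 10 lists of other ER genes, for the 3 contrasts, with the number tested at the right of each panel. The calcium list has 8 lower and 1 higher of 11 in the first panel and 1 lower and 3 higher in the second.

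The genes with the pattern closest to CALR were sought among 4395 tested genes with a mean of at least 50 CPM, by the root mean square difference of log2 CPM, centred on the mean of sh-Control, over the 9 libraries. The 5 closest were SURF4 (0.0442), POLD1 (0.0605), EXO1 (0.0718), CDC6 (0.0721) and MCM8 (0.0792). SURF4 stood at 414, 382 and 379 CPM in sh-Control, at 177, 183 and 161 CPM with shDDX41 #1 and at 360, 359 and 341 CPM with shDDX41 #2. POLD1 is the catalytic subunit of a replicative DNA polymerase, EXO1 a DNA exonuclease, and CDC6 and MCM8 act in DNA replication and repair. Among the other chaperones HYOU1 was the nearest to CALR (0.174, rank 54 of the candidates), followed by HSPA5 (0.426), and DNAJB9 was the farthest (0.678).

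**Figure D5:**
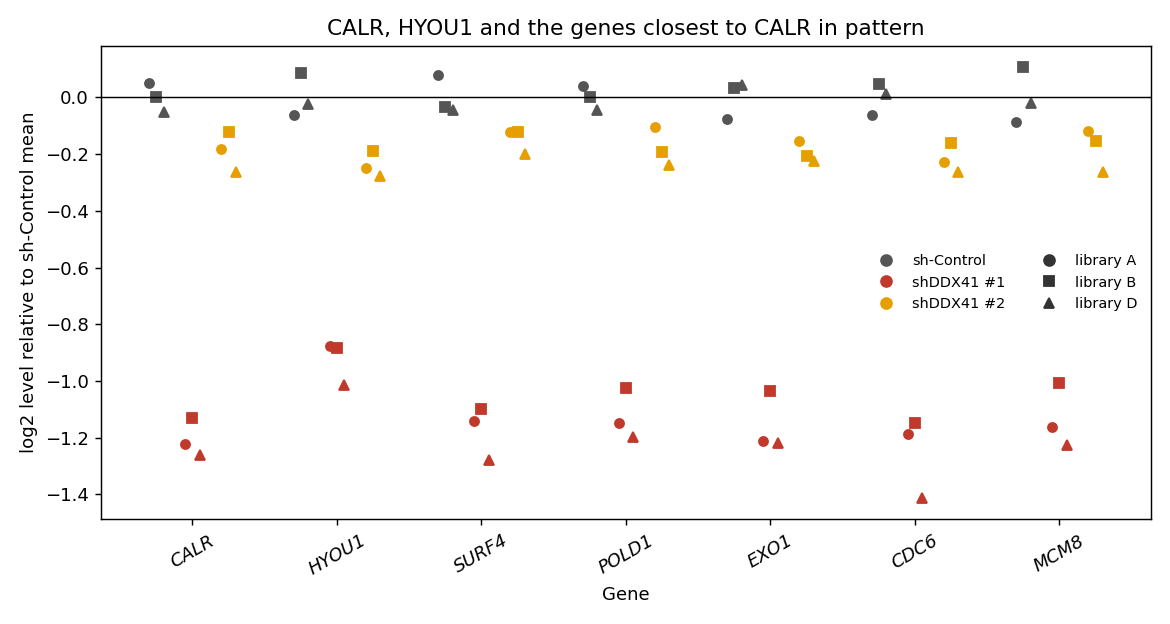
Difference of log2 CPM from the mean of sh-Control (vertical axis) of CALR, HYOU1 and the 5 genes closest to CALR in pattern, 1 point per library, with groups in grey (sh-Control), red (shDDX41 #1) and orange (shDDX41 #2). CALR lies at -1.13 to -1.26 in the shDDX41 #1 libraries and at -0.12 to -0.26 in those of shDDX41 #2.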

How the data were processed

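RNA was isolated with a column kit from sorted GFP+ MOLM13 cells, and poly(A)-selected libraries were prepared, 3 for each of sh-Control, shDDX41 #1 and shDDX41 #2. The labels name a stranded kit and the methods of the study an unstranded one, so genes overlapping on opposite strands are uncertain. The submitters' processing notes list FastQC 0.11.7, HISAT2 2.0.5 and featureCounts 1.5.2 with the builds hg38 and mm10, and the human build was assumed for these human cells. The annotation, the strand setting and the treatment of reads that map to several genes are not given in the sources used here. The table deposited by the authors held raw counts per gene, not normalized, with 0 columns left unmapped, at 16385238 to 20510032 counts per library, which puts counting error below the biological coefficient of variation over all genes (0.0768) for all 10 members.

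The 10 genes and the gene lists were chosen with earlier results of these data known. For the tests, edgeR 4.0.16 was run in R 4.3.3. The filter was filterByExpr with a minimum count of 10, leaving 12712 genes, the scaling was TMM, and the 9 libraries entered 1 quasi-likelihood model with the group as its only term. Tests were two-sided, with Benjamini-Hochberg adjustment over all tested genes in each contrast. SE values come from the coefficient and its moderated statistic. DESeq2 1.42.0, limma 3.58.1, other scalings, filters, thresholds, a replicate block and leaving out each library were the alternatives. In each list of other ER genes, the called gene with the smallest adjusted p in each contrast with sh-Control was named if it reached 5 CPM, with all UPR factors and the 5 genes closest to CALR in pattern. Promoter windows and coordinates come from RefSeq (GRCh38.p14). The tests were checked on simulated data.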

Additional observations from a re-analysis of the deposited data

Results flagged for a closer look

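For 5 of the 10 chaperones, the libraries of shDDX41 #1 and shDDX41 #2 differed past the edgeR threshold, as they did for 48.8% of all tested genes. The group was chosen for the lower CALR in these same libraries, so the CALR value is a description and the others are not independent of that choice. The log2 difference was -1.02 for CALR and -0.69 for HYOU1. It was -0.34 for DNAJB9, -0.21 for HSP90B1 and -0.18 for PDIA4, and each of these 3 calls was lost when shDDX41 #2 B was left out. The shDDX41 #1 libraries lay below all shDDX41 #2 libraries for CALR, HYOU1, DNAJB9, PDIA4 and also CANX. Of all tested genes, 57.7% had no overlap between the hairpins, 28.5% with shDDX41 #1 lower. DDX41 itself was also lower with shDDX41 #1 than with shDDX41 #2 (log2 difference -1.79). The part of that difference in the chaperone values was not tested. Each level of DDX41 loss came from its own hairpin, so degree of loss, hairpin sequence and cell state cannot be told apart here.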

How the results depend on the processing

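Over the alternatives, the log2 fold changes of the 10 chaperones kept direction and side of the threshold in 484 of the values computed, 41 were no longer called, 11 became called and 4 changed sign. The cause was not tested. Requiring at least a 2-fold change left 854 genes, 1 member and 5 wider ER genes with shDDX41 #1, 313, 0 and 1 with shDDX41 #2 (edgeR; 4 members at the adjusted threshold alone), and 833, 1 and 9 between the hairpins. An adjusted p under 0.01 left 1670 genes, 1 member and 20 wider ER genes with shDDX41 #2 and 2 members between the hairpins, where upper quartile scaling left 3 members. Leaving out 1 library gave 2054 to 4248 genes, 1 to 4 members and 21 to 53 wider ER genes with shDDX41 #2 (lowest without shDDX41 #2 B, for members without shDDX41 #2 A or D), and 2 to 7 members between the hairpins.

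Under upper quartile scaling PDIA3 was at 0.0112 with shDDX41 #1 and 0.0140 between the hairpins, TAPBPL at 0.0443 with shDDX41 #1 and KDELR1 at 0.0360 between the hairpins, where library size alone gave 0.00142. Leave-one-out log2 fold changes ran from -0.0946 to 0.0114 for PDIA3, -0.0903 to 0.20 for SDF2L1 and -0.0209 to 0.00996 for KDELR1 between the hairpins, from -0.10 to 0.0314 for TAPBPL with shDDX41 #1, and from -0.00603 to 0.27 for PPP1R15A and -0.0065 to 0.12 for DERL3 with shDDX41 #2.

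With the replicate letter as a replicate block, 8, 4 and 5 members were called in the 3 contrasts against 7, 4 and 5, SDF2L1 being added with shDDX41 #1 (adjusted p = 0.0217). With that block, 6351, 3570 and 6503 of all tested genes were called, against 6078, 3174 and 6204. The letters were not taken to pair the libraries. Correlations of same-letter deviations were 0.0725 (A), 0.1585 (B) and 0.243 (D) between sh-Control and shDDX41 #1. In pairs with shDDX41 #2 they ran from -0.0574 to 0.0225. Library D was the highest of both sh-Control and shDDX41 #1 for HSPA5, HSP90B1, PDIA3, PDIA6, SDF2L1 and DNAJB9. For CALR it was the lowest of both, and for CANX, PDIA4 and HYOU1 neither held. DNAJB9, at 216 to 374 counts per library, was the member most limited by depth.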
